A study of Mus musculus with 18 samples.

Results

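Levels of 10 hypoxia response genes were compared between control whole lungs of mouse embryos and lungs with an epithelial deletion of Rptor, Tfam or Cox10, at 14.5 days post coitus (dpc). The genes were Hif1a, Epas1, Vegfa, Slc2a1, Pdk1, Egln3, Ankrd37, Bnip3, Adm and Ndrg1, taken by symbol out of the 23416 gene rows of each table. All 10 were found, and all 10 passed the filter on low values in every line (at least 10 normalised reads in at least 3 of 6 samples). In the Rptor line, 3 control lungs were Rptorf/+; ShhCre/+ and 3 deficient lungs were Rptorf/f; ShhCre/+. The Tfam line (Tfamf/+; ShhCre/+ against Tfamf/f; ShhCre/+) and the Cox10 line (Cox10f/+; ShhCre/+ against Cox10f/f; ShhCre/+) were built the same way, which gave 18 samples. Every lung, controls included, thus carried ShhCre and at least 1 floxed allele, and the controls were littermates. Cre from the Shh locus acts in lung epithelium, so the mesenchyme, vessels and blood cells of a deficient lung kept the gene. Rptor encodes a scaffold of the growth kinase mTORC1, Tfam a factor that maintains mitochondrial DNA, and Cox10 an enzyme needed to assemble cytochrome oxidase.

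Cells sense low oxygen through hypoxia-inducible factors (HIFs). An oxygen-labile alpha subunit, such as the products of Hif1a and Epas1, is hydroxylated by prolyl hydroxylases and destroyed while oxygen is present, and otherwise pairs with ARNT and switches on genes for glucose uptake, glycolysis, mitochondrial removal and vessel growth. The alpha subunits are regulated mainly as proteins, so the mRNA of Hif1a itself says little of HIF activity, whereas the target mRNAs are its usual readout. Synthesis of HIF-1alpha is known to depend in part on mTORC1, oxygen use by the respiratory chain sets how much oxygen is left in a cell, and VEGF from the lung epithelium guides the growth of the surrounding vessels.

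Libraries held 27673878 to 29702682 reads each. The targeted genes themselves did not report on the deletion: normalised reads of Rptor were 2197 to 2298 in controls and 1986 to 2442 in deficient lungs, those of Tfam 1057 to 1185 and 939.9 to 1107, and those of Cox10 753 to 824 and 743 to 829, and none of the 3 passed the test. All 10 epithelial markers (such as Epcam, Cdh1 and Nkx2-1) were detected in all 18 samples, and 9 of them fell in Rptor-deficient lungs (18.2% of all genes fell), 4 in Tfam-deficient (2.63%) and 2 in Cox10-deficient lungs (0.335%). In whole lungs, fewer cells of a type and less RNA per cell cannot be told apart. A value is a read count divided by the size factor of its sample, and a log2 fold change is deficient minus control on log2(value + 1).

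Libraries that stood apart have to be named before the results. Rptor-deficient replicate 1 was the highest of its 6 samples for 9 of the 10 genes, all but Hif1a, while it was the highest for 24.4% of all genes tested. Relative to the mean of the other 2 Rptor-deficient lungs it was 4.995-fold higher for Adm, 4.84-fold for Ankrd37, 3.49-fold for Bnip3, 3.05-fold for Slc2a1 and 2.18-fold for Egln3. In all, 7 of the 10 genes were more than 1.5-fold higher there, against 3.68% of all genes. In the Cox10 line, deficient replicate 3 was the highest sample for 8 of the 10 genes (30.7% of all genes) and exceeded the mean of the other 2 deficient lungs 2.01-fold for Epas1, 1.86-fold for Ndrg1, 1.85-fold for Egln3 and 1.70-fold for Ankrd37. Cox10 replicate 2 was the lowest of its group for 7 genes in the controls and in the deficient lungs alike, and Rptor replicate 1 was the highest of its group for 5 genes in both groups. No Tfam library stood apart in this way. Beside these values, the summed reads of 9 erythroid genes (1 or 2 of them at 0) were 65383 in Rptor-deficient replicate 1 and 27018 and 44700 in the others, and those of 10 epithelial markers 14250, 18617 and 21691. In Cox10-deficient lungs the erythroid sum was 29524 in replicate 3 and 53191 and 49422 in the others, and the epithelial sum 25034 against 16200 and 17695. The controls of that line held 24171 to 24800, so that this deficient library had an epithelial sum above every control. Even so, 7 of the 10 epithelial markers were lower in every deficient lung than in every control of that line (10.8% of all genes). Its endothelial (39342), mesenchymal (273860) and macrophage (5468.5) sums were also the highest of the line, whereas its erythroid and neural (472.5) sums were the lowest. The part of these cells in the results was not tested.

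**Figure D1:**
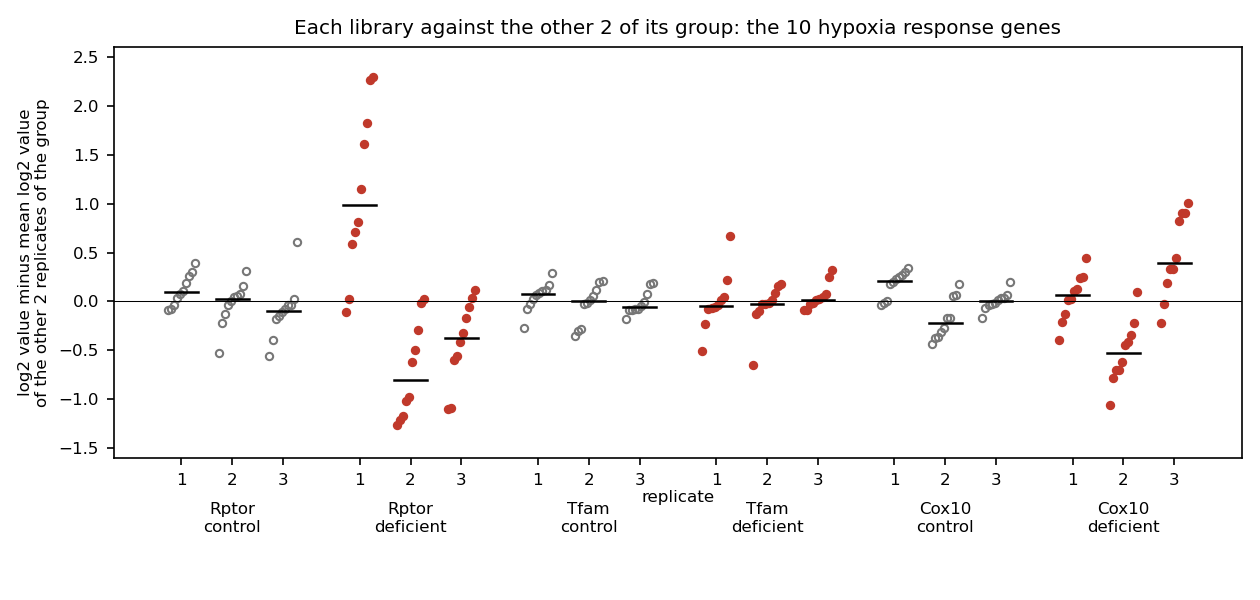
Each point is 1 of the 10 genes in 1 library, placed by its log2(value + 1) minus the mean of that quantity in the other 2 replicates of the same group, with the median as a bar, open points for controls and filled points for deficient lungs. Rptor-deficient replicate 1 (median 0.97) and Cox10-deficient replicate 3 (median 0.37) lie above 0, whereas the Tfam libraries lie close to it.

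In Rptor-deficient lungs 2 of the 10 genes rose, Ndrg1 and Epas1, and none fell, in a fit that did not pair the samples. Over all 14937 genes tested in that fit, 16.6% rose and 18.2% fell. With the replicate numbers, taken as paired from the data, as a block, Vegfa and Egln3 rose as well. The median log2 fold change of the 10 genes was 0.46, beside 0.0082 over all genes, but without deficient replicate 1 it was 0.035. In Tfam-deficient lungs 1 of the 10 rose, Slc2a1, where 2.03% of all genes rose and 2.63% fell, with a median of 0.14. Of the 10 genes in Cox10-deficient lungs none passed by limma, edgeR or DESeq2, 1 had an unadjusted p below 0.05, and the median was 0.27, or 0.056 without deficient replicate 3. Over all genes in that line 0.141% rose and 0.335% fell, or 0.492% and 1.23% without deficient replicate 3.

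**Figure D2:**
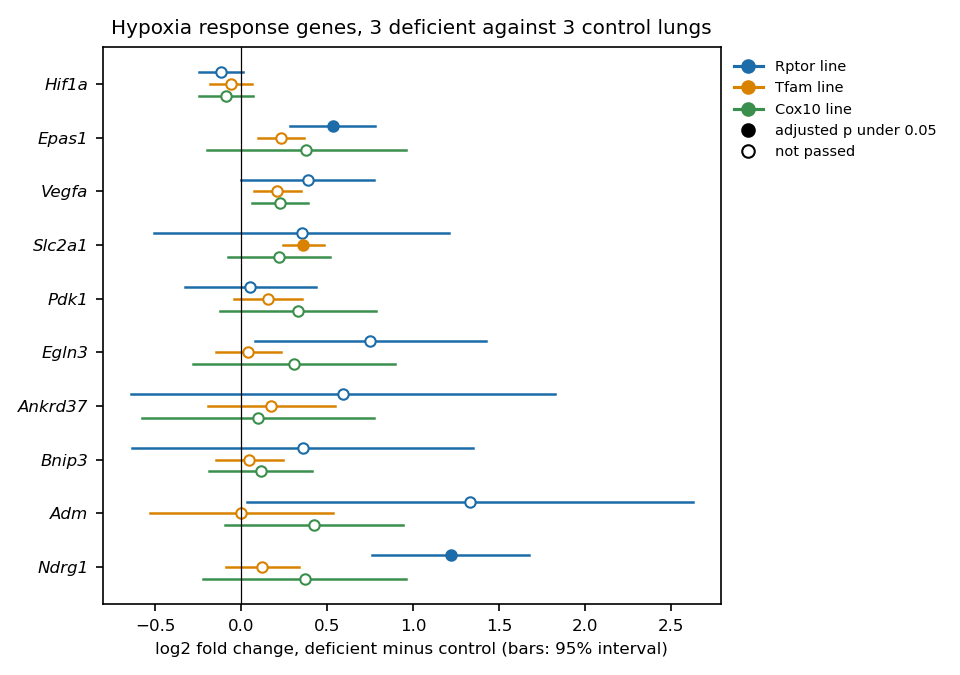
Log2 fold change (deficient minus control, 3 against 3 samples) of the 10 genes in each line, with unadjusted 95% intervals as bars and filled points for an adjusted p below 0.05. Ndrg1 and Epas1 in the Rptor line and Slc2a1 in the Tfam line are filled, and the widest intervals are those of Adm, Ankrd37, Bnip3 and Slc2a1 in the Rptor line.

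Hif1a (chr12:73901375-73947530, GRCm38, plus strand) encodes the broadly expressed alpha subunit. Its values in the Rptor line were 5314, 5605 and 5327 in controls and 4759, 4964 and 5268 in deficient lungs, so that the groups did not overlap and the deficient lungs were lower. A lower deficient group without overlap was also seen for 26% of all genes in that line, and the log2 fold change of -0.12 ± 0.056 (SE) did not pass (adjusted p = 0.138, limma). In Tfam lungs controls held 5965, 5610 and 5453 and deficient lungs 5466, 5376 and 5465, a log2 fold change of -0.061 ± 0.055. Cox10 controls held 5431, 5712 and 5453 reads and deficient lungs 5514, 5436 and 4689, a log2 fold change of -0.089 ± 0.068. The lower ends of the 95% intervals were -0.24, -0.18 and -0.25 in the 3 lines.

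Epas1 (chr17:86753700-86833410, GRCm38, plus strand) encodes HIF-2alpha, which is prominent in endothelium. Its values in Rptor controls were 1495, 1666 and 1205, and in deficient lungs 2115, 2109 and 2034. The 3 deficient lungs lay close together and above every control, a rise of 0.53 ± 0.11 (SE) on the log2 scale (1.45-fold, adjusted p = 0.00634, limma), and without replicate 1 it was 0.52 (adjusted p = 0.00922). In the Tfam line, controls held 2074, 2268 and 2108 and deficient lungs 2431, 2626 and 2507, again without overlap. That log2 fold change of 0.23 ± 0.060 missed the threshold (adjusted p = 0.0570) and passed in some other settings. Cox10 controls held 966, 1059 and 901, and deficient lungs 1056, 952 and 2019. Here replicate 3 alone was high, and the log2 fold change was 0.38 ± 0.25 with it and 0.043 without it.

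Markers of endothelium, where Epas1 is known to be expressed, are given beside it. Of 10 endothelial markers, 8 rose in Rptor-deficient lungs (16.6% of all genes rose), with a median log2 fold change of 0.32, and their summed normalised reads were 34775 to 35747 in controls and 42321 to 48952 in deficient lungs. In the Tfam line, where 2.03% of all genes rose, none passed (median 0.10), and the sums were 37139 to 38161 and 39070 to 41456. In the Cox10 line, where 0.141% rose, none passed either (median 0.27), with sums of 23991 to 24733 in controls and of 26766, 24394 and 39342 in the deficient lungs, the last being the replicate in which Epas1 was high. No endothelial marker was at 0 in any sample, and their part in the Epas1 result was not tested. The gene whose pattern over the 18 samples was nearest to that of Epas1, after centring each line on its controls, was Acvrl1, a receptor kinase of endothelial cells. The root-mean-square difference was 0.098 on the log2 scale, where the median gene lay 0.39 away. Its log2 fold change was 0.51 with Rptor, 0.16 with Tfam and 0.36 with Cox10 deficiency, given as a description because the gene was chosen for this pattern.

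Vegfa (chr17:46016993-46032369, GRCm38, minus strand) encodes the main growth factor for vessels and is a classical HIF target. Rptor controls held 4711, 4477 and 4251 and deficient lungs 8110.1, 5112 and 4842. Tfam controls held 4119, 4018 and 3850.1 and deficient lungs 4471, 4978 and 4428. Cox10 controls held 4482, 4602 and 4351 and deficient lungs 5293, 4732 and 5709. In each line every deficient lung was above every control, an arrangement shared with 24.3% of all genes of the Rptor table, 10.9% of those of Tfam and 10.6% of those of Cox10. None of the 3 log2 fold changes passed: 0.39 ± 0.17 (adjusted p = 0.109), 0.21 ± 0.062 (0.0927) and 0.22 ± 0.070 (0.282), all by limma. The labels do not state a pairing, and the Rptor replicate numbers were taken as paired from the data. With these numbers as a block Vegfa passed in that line (adjusted p = 0.0294, limma), as it did in the fit of all 18 samples (0.0246). Without deficient replicate 1 its log2 fold change was 0.15.

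**Figure D3:**
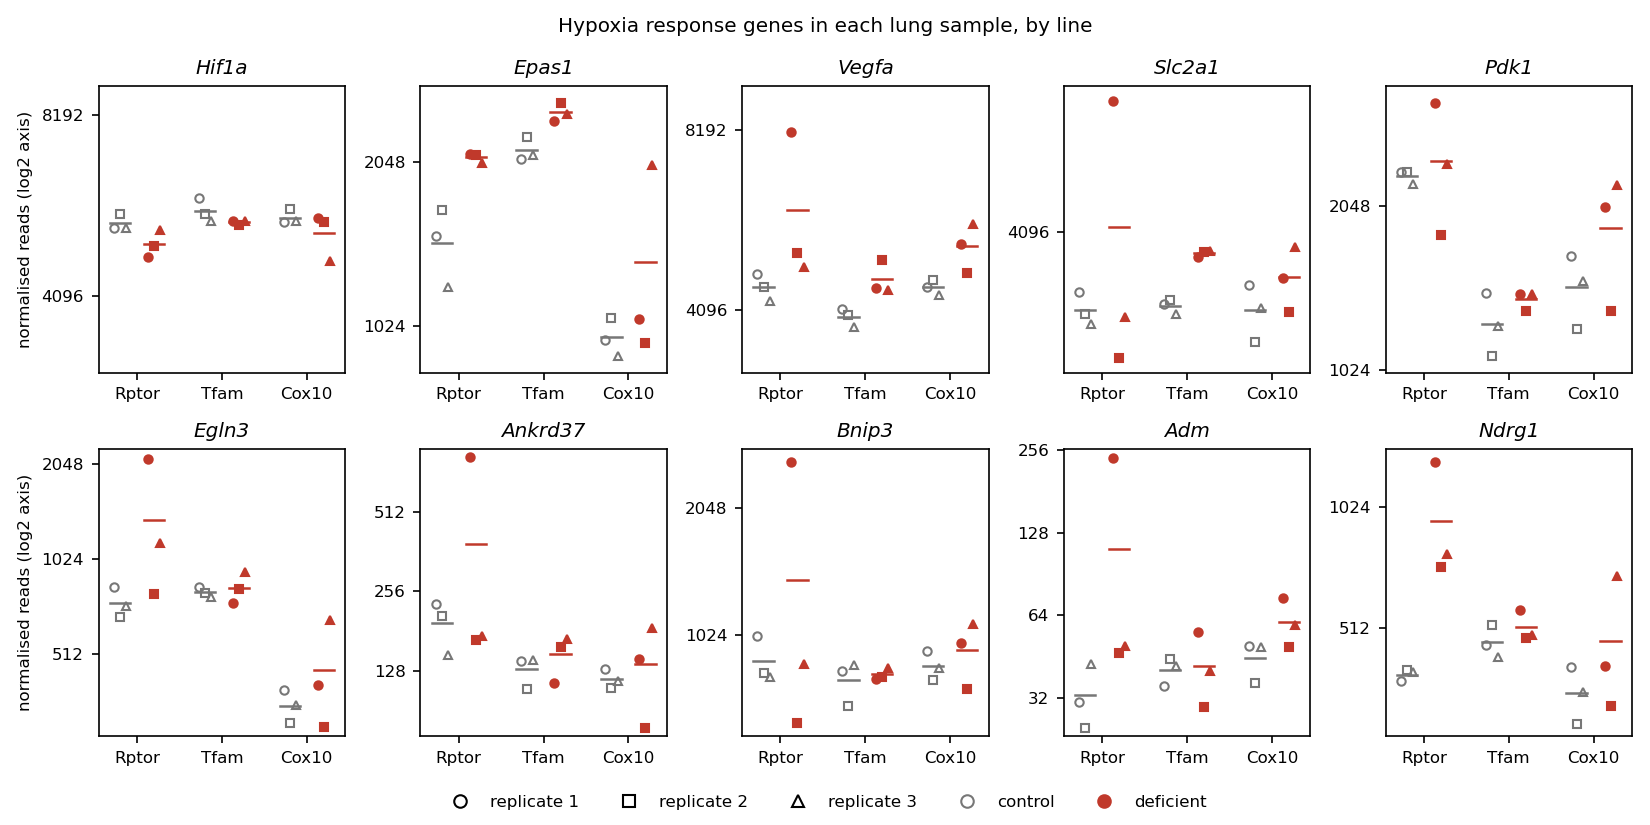
Normalised reads of each gene in every sample (log2 axis, a range of its own per gene), with controls as open and deficient lungs as filled points, the replicate number as the shape, and group means as bars. Vegfa is the gene whose deficient lungs all lie above the controls in each line, and the filled circle of the Rptor line (replicate 1) is the highest point of that line in 9 panels.

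Slc2a1 (chr4:119108711-119137983, GRCm38, plus strand) encodes the glucose transporter GLUT1. Tfam controls held 2915, 2966 and 2777 reads, and deficient lungs 3644, 3725 and 3749. The groups were far apart for their spread, a rise of 0.36 ± 0.054 on the log2 scale (1.28-fold, adjusted p = 0.00294, limma), and the call held without each sample in turn (adjusted p = 0.00425 to 0.0211) but not in the fit of all 18 samples with a shared spread (0.595). Rptor controls held 3084, 2782 and 2648 and deficient lungs 7617, 2260 and 2740.2. Only replicate 1 was high: the log2 fold change was 0.35 ± 0.38 with it and -0.19 without it, and neither passed. Cox10 controls held 3195, 2437 and 2865 and deficient lungs 3300.2, 2804 and 3819, which overlapped (log2 fold change 0.22 ± 0.13).

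The gene nearest in pattern to Slc2a1 over the 18 samples was another of the 10, Bnip3 (root-mean-square difference 0.17 on the log2 scale). Bnip3 (chr7:138890836-138909519, GRCm38, minus strand) encodes a receptor that directs mitochondria to autophagy. Its Rptor controls held 1020.2, 835 and 817 reads and its deficient lungs 2636, 633 and 877. Its log2 fold change was 0.36 for Rptor, 0.047 for Tfam and 0.11 for Cox10 deficiency, none past the threshold, and the first was -0.25 without deficient replicate 1.

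HIF dimers bind a core of ACGTG or GCGTG, and the promoter windows of Slc2a1 and Bnip3 are shown because these were the genes of nearest pattern. Slc2a1 is the called gene with the largest fold change that had a window, and this pair was picked after its values were seen. The 250 bases before the RefSeq gene start are given 5′ to 3′ on the gene's strand, in lower case with each match to the core on either strand in capitals (RefSeq, GRCm38.p6, chr4:119108495-119108744 plus strand for Slc2a1 and chr7:138909507-138909756 minus strand for Bnip3). For both genes this start lies inside the span printed above, which is from another annotation, so the last bases of each window fall within that span.
Slc2a1: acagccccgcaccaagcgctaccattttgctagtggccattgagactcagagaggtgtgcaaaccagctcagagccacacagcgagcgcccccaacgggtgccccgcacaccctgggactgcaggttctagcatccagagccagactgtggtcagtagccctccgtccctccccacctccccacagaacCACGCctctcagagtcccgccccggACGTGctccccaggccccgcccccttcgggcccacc
Bnip3: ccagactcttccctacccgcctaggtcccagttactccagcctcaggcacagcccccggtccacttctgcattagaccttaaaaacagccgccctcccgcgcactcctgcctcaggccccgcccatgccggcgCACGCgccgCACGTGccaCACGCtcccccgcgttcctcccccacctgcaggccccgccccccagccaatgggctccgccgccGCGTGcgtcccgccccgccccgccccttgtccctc
The Slc2a1 window held 2 matches and that of Bnip3 5, where a palindrome (CACGTG) counts once on each strand. RefSeq windows of 300 bases were listed for 8 of the 10 genes, Epas1 and Ndrg1 being the others. All 8 had a match in at least 1 window, as had 46.7% of all 27025 genes, and 8 of their 10 windows held one, beside 43.8% of all 32851 windows. Ankrd37 had 4 matches, Hif1a 3, Adm 2, Egln3 1, and 1 window each of Vegfa and Pdk1 had 2. For Vegfa these lay in a window inside its printed span (chr17:46025114-46025413). The Vegfa window at the start of that span (chr17:46032328-46032627) had 0. A match shows only that these letters are present.

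Pdk1 (chr2:71873224-71903858, GRCm38, plus strand), a mitochondrial kinase that inactivates pyruvate dehydrogenase, varied among replicates, and in the Rptor line more than between groups. Its values in the Rptor line ran from 2240 to 2364 in controls and from 1806 to 3159 in deficient lungs, a log2 fold change of 0.054 ± 0.17. The Tfam line ran from 1086 to 1415 in controls and 1316 to 1412 in deficient lungs (0.16 ± 0.089), and the Cox10 line from 1218 to 1657 and 1313 to 2233 (0.33 ± 0.20). No line passed, and the groups overlapped in all 3. The Rptor value was -0.14 without deficient replicate 1, and the Cox10 value 0.18 without deficient replicate 3.

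Egln3 (chr12:54178981-54203860, GRCm38, minus strand) and Ankrd37 (chr8:45996902-46005707, GRCm38, minus strand) are both HIF targets, and Egln3 is also a prolyl hydroxylase that marks HIF alpha subunits for destruction. Egln3 in the Rptor line held 839, 672 and 730.1 in controls and 2130.3, 798 and 1157 in deficient lungs. Replicates 1 and 3 exceeded every control and replicate 2 did not, and the log2 fold change was 0.75 ± 0.29 (adjusted p = 0.0787, limma). It passed with the replicate block (adjusted p = 0.0133) and in the fit of all 18 samples (0.0341), and without deficient replicate 1 it was 0.37. Ankrd37 in the same line held 229, 206 and 147 in controls and 823, 167 and 173 in deficient lungs, so that replicates 2 and 3 lay within the controls. Its log2 fold change of 0.59 ± 0.54 became -0.16 without replicate 1. Neither gene passed in the Tfam line (0.041 and 0.18) or the Cox10 line (0.31 and 0.096), and in the latter Egln3 was 660.3 in deficient replicate 3 and 410.2 and 303 in the other two.

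Adm (chr7:110627661-110629820, GRCm38, plus strand), the gene for the vessel-relaxing peptide adrenomedullin, had the lowest counts of the 10. Rptor controls held 30.9, 25.0 and 42.8 reads and deficient lungs 239.6, 46.5 and 49.4. The deficient lungs did not overlap the controls, and the log2 fold change of 1.33 ± 0.57 was the largest of the 10 in any line, yet it did not pass (adjusted p = 0.102, limma) and was 0.56 without replicate 1. It passed in the fit of all 18 samples (adjusted p = 0.0221). In Tfam lungs controls held 35.6, 44.5 and 42.0 and deficient lungs 55.6, 29.8 and 40.1, with no difference in the means on the log2 scale (0.00032 ± 0.24). Cox10 controls held 49.6, 36.3 and 49.0 and deficient lungs 73.8, 49.3 and 59.3, a log2 fold change of 0.42 ± 0.22.

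Ndrg1 (chr15:66929318-66969640, GRCm38, minus strand) encodes a stress- and differentiation-linked protein induced by low oxygen. Its values in the Rptor line were 376, 401 and 396 in controls and 1329, 726 and 784 in deficient lungs. Every deficient lung was above every control, a rise of 1.22 ± 0.20 (SE) on the log2 scale (2.33-fold, adjusted p = 0.00247, limma). The rise remained without replicate 1 (0.95, adjusted p = 0.000119). Tfam controls held 464, 518 and 432 and deficient lungs 568, 482 and 492 (log2 fold change 0.12 ± 0.096). Cox10 controls held 409, 295 and 355 and deficient lungs 411, 327 and 687, so that only replicate 3 lay above the controls (0.37 ± 0.26, and 0.068 without it). The gene of nearest pattern was Ncam1, a neural and mesenchymal adhesion molecule (root-mean-square difference 0.17 against 0.60 for the median gene). Its log2 fold change in the Rptor line was 1.30, a description, since the choice of the gene fixed it. Beside Ndrg1, 6 of 10 mesenchymal markers rose in that line, where 16.6% of all genes did (median log2 fold change 0.86), their sums being 192910 to 224180 in controls and 390530 to 420920 in deficient lungs. All 9 macrophage markers rose too (median 0.82), with sums of 4607 to 4789 and 7006 to 8465. The 10 epithelial markers had a median of -0.97 and sums of 39161 to 45356 and 14250 to 21691, with none of these markers at 0, and the part of these cell types in the Ndrg1 result was not tested.

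Counting groups that did not overlap, 4 of the 10 genes were higher and 1 lower in Rptor-deficient lungs (24.3% and 26% of all genes), 3 higher and none lower in Tfam-deficient lungs (10.9% and 11.8%), and 1 higher and none lower in Cox10-deficient lungs (10.6% and 10.8%).

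Effects were also set against each other between lines in a model of all 18 samples. Ndrg1 was the only one of the 10 that differed: its effect was larger in the Rptor than in the Tfam line by 1.10 ± 0.32 on the log2 scale (adjusted p = 0.0351, limma), where 11.2% of 14548 genes differed. The 95% interval ran from 0.43 to 1.76. Leaving out Rptor-deficient replicate 1 gave 0.82 (adjusted p = 0.0778). Between the Rptor and Cox10 lines none of the 10 differed (7.49% of all genes did; 1 had an unadjusted p below 0.05, and edgeR and DESeq2 called none), with differences from -0.28 to 0.91. Between the Tfam and Cox10 lines none differed either (0.055% of all genes; none at an unadjusted p below 0.05 and none by edgeR or DESeq2), with differences from -0.42 to 0.14 and standard errors of 0.084 to 0.62. A setting without both libraries that stood apart was chosen after seeing the data. There, Ndrg1 (0.82, adjusted p = 0.00465) and Slc2a1 (-0.55, adjusted p = 0.0135) differed between the Rptor and Tfam lines, and Ndrg1 (0.88, adjusted p = 0.00475) and Epas1 (0.48, adjusted p = 0.0386) between the Rptor and Cox10 lines.

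In control lungs the 10 genes spanned a wide range of levels per length. As normalised reads per kilobase of exon (the union of the exons of a gene) in Rptor controls, Vegfa was highest with 1045 ± 53.7 (SD, n = 3), followed by Hif1a with 918 ± 27.9 and Slc2a1 with 809 ± 63.6. Bnip3 had 393 ± 49.7, and Pdk1 (298 ± 8.86), Egln3 (281 ± 31.7) and Epas1 (260.3 ± 41.8) followed without differing beyond their spread. Ankrd37 had 126 ± 27.5, Ndrg1 59.3 ± 1.98 and Adm 20.3 ± 5.60. Vegfa, Hif1a and Slc2a1 were the top 3 and Adm the lowest in the controls of the other 2 lines as well. The lines were normalised in separate tables, so that their control levels were not tested against each other. Side by side, control Epas1 was 260.3 with Rptor, 385 with Tfam and 174 with Cox10 floxed lungs, in the same unit. Egln3 was 281, 304 and 133 in that order, and Pdk1 298, 160.1 and 187.

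Upstream of the 10 genes, 18 partners and regulators of HIF were all measured. In Rptor-deficient lungs 3 rose and 4 fell, beside 16.6% and 18.2% of all genes. Those that rose were Hif3a, an alpha subunit whose shorter forms oppose the others (log2 fold change 0.60, adjusted p = 0.00233, limma), Cited2, which competes with HIF for its coactivators (0.61, adjusted p = 0.00271), and Vhl, which recognises hydroxylated HIF for destruction (0.18, adjusted p = 0.0493). Those that fell were Cul2 (-0.40), Tceb2 (-0.26) and Tceb1 (-0.19), subunits of the ligase in which VHL works, and Siah2 (-0.35), a ligase for prolyl hydroxylases. The oxygen sensors Egln1, Egln2 and Hif1an and the partner Arnt did not pass (log2 fold changes 0.20, 0.080, -0.0080 and 0.15). Without deficient replicate 1, which stood apart, 3 rose and 2 fell: Vhl (adjusted p = 0.0528), Tceb1 (0.0770) and Siah2 (0.0658) no longer passed, Egln2 did (0.21, adjusted p = 0.0435), and Egln1 was at 0.00048. Leaving out each of the other 5 samples in turn gave 2 to 3 rises and 1 to 3 falls. Cited2 also rose in Tfam-deficient lungs, from 1965 ± 33.5 to 2696 ± 118 normalised reads (SD, n = 3; log2 fold change 0.46, adjusted p = 0.000928), and it was the only one of the 18 to pass there. The call was lost in the fit of all 18 samples (adjusted p = 0.0575), and 2 of these genes passed without control replicate 3. None passed by limma in Cox10-deficient lungs, with 2 at an unadjusted p below 0.05.

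Downstream, 42 other known HIF targets were measured. Eno1 was close to the filter on low values, with 14.3 ± 2.31 normalised reads in Rptor controls (SD, n = 3). Gapdh ran from 316 to 6272 within the same controls, and both are in the counts and medians. In Rptor-deficient lungs 8 rose and 2 fell (16.6% and 18.2% of all genes), with a median log2 fold change of 0.12. The greatest rise among them was that of Pfkfb3, which makes the activator of phosphofructokinase, from 2468 ± 90.7 to 4778 ± 1540 (SD, n = 3; log2 fold change 0.91, adjusted p = 0.00589, limma). The greatest fall was that of Tfrc, the transferrin receptor, from 5339 ± 383 to 2802 ± 105 (-0.93, adjusted p = 5.68e-05). The other fall was Mif (-0.86), and the other rises were Slc2a3 (0.79), Vldlr (0.63), Ppp1r3c (0.49), Zfp395 (0.47), Narf (0.44), Lox (0.37) and Pfkfb4 (0.30). Without control replicate 1, 5 rose. Deficient replicate 1 was the highest sample for 33 of the 42.

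Leaving that library out changed the balance of the list. The same 8 genes rose, but 13 fell, Tfrc and Mif among them, and the median became -0.12, while over all genes 16.8% rose and 19.2% fell. The library was singled out because hypoxia response genes were high in it, and most of these targets were highest there too. Lower fold changes without it were therefore built in, and nothing is drawn from the added falls. Of the 11 added, those named here were Ak4 (-0.74), Pgk1 (-0.65), Ldha (-0.54), Hk2 (-0.49), Higd1a (-0.40), Pgam1 (-0.38), Aldoa (-0.29), Plod2 (-0.29), Tpi1 (-0.29) and Jmjd6 (-0.21), with adjusted p-values from 0.000616 to 0.0499. Hk2, Aldoa, Tpi1, Pgk1, Pgam1 and Ldha are enzymes of glycolysis and lactate production. In the same setting the glycolytic genes Gpi1 (-0.13), Eno1 (-0.40), Gapdh (-1.81) and Aldoc (0.42) did not pass, while Pfkfb3 (0.66) and Pfkfb4 (0.33) rose. With all 6 samples none of the added falls named above passed, and their log2 fold changes ran from -0.40 to 0.039.

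In Tfam-deficient lungs 4 of the 42 targets rose and none fell by limma, beside 2.03% and 2.63% of all genes (median 0.060; 9 had an unadjusted p below 0.05). They were Stc2, a secreted stress glycoprotein, from 131 ± 1.69 to 475 ± 33.9 (SD, n = 3; log2 fold change 1.85, adjusted p = 1.53e-06), the glucose transporter gene Slc2a3 (0.59, adjusted p = 0.00236), Hk2, which traps glucose in the cell (0.29, adjusted p = 0.0468), and the lipoprotein receptor gene Vldlr (0.27, adjusted p = 0.0334). Slc2a3 and Vldlr rose in both the Rptor and the Tfam line. With each Tfam sample left out in turn 2 to 5 of the 42 rose (only 2 without control replicate 1 or 2 or deficient replicate 2 or 3). Slc2a3 did not pass in the fit of all 18 samples (adjusted p = 0.0600, limma). In that fit only 2 genes over all 4 pathway lists passed in the Tfam line, so that not all of the other calls held. Of the 42, none passed by limma in Cox10-deficient lungs (median 0.057; 6 had an unadjusted p below 0.05).

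Paralogues of the 10 were followed where measured. Adm2, a relative of Adm that acts through the same type of receptor, had 9.43 ± 2.61 normalised reads in Tfam controls and 186 ± 13.9 in Tfam-deficient lungs (SD, n = 3; log2 fold change 4.19), while Adm had 40.7 ± 4.60 in controls and 41.8 ± 13.0 in deficient lungs. Adm2 passed the filter on low values in the Tfam line only through the deficient lungs in which it was high, so these values are given as a description. It was below the filter in the other lines, with means of 9.97 and 2.68 in Rptor controls and deficient lungs and of 6.32 and 24.9 in those of Cox10. In Rptor-deficient lungs 5 of 12 paralogues tested rose and 1 fell (16.6% and 18.2% of all genes). Pdk4, a relative of Pdk1 linked to fat use, rose from 48.5 ± 7.77 to 100.8 ± 18.7 (log2 fold change 1.04, adjusted p = 0.00542), together with Ndrg2 (0.77), Pdk2 (0.39), Slc2a8 (0.31) and Ndrg4 (0.29), and Pdk3 fell (-0.24). With any 1 of the 6 samples left out 3 rose, and the fall was kept only without deficient replicate 1. In that setting Slc2a8 (0.23, adjusted p = 0.105) and Ndrg4 (0.26, adjusted p = 0.0764) did not pass. None of the other 12 passed by limma in the Tfam line, with 1 at an unadjusted p below 0.05, and none of 12 in the Cox10 line, with 2 at an unadjusted p below 0.05.

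Signals and receptors that share the pathways of Vegfa and Adm were the last list, with 13 of 14 genes measured. In Rptor-deficient lungs 7 rose and 1 fell, where 16.6% and 18.2% of all genes did (median log2 fold change 0.33). The ligands Figf (also called Vegfd), Pgf and Vegfc rose, Figf from 1432 ± 34.0 to 2686 ± 135 (SD, n = 3; log2 fold change 0.91, adjusted p = 4.28e-05, limma), Pgf by 0.58 and Vegfc by 0.54. The VEGF receptors Flt4 (0.40) and Kdr (0.33) and the co-receptor Nrp2 (0.77) rose, and the co-receptor Nrp1 fell (-0.23). Calcrl, which forms the receptor of adrenomedullin with a RAMP protein, rose in each line: by 0.70 ± 0.10 in the Rptor line (adjusted p = 0.00140), by 0.42 ± 0.076 in the Tfam line (0.00996) and by 0.74 ± 0.11 in the Cox10 line (0.0365). It was the only one of the 13 to pass in the Tfam and Cox10 lines, and none passed in the former without deficient replicate 3. In the Cox10 line its values were 798.5 to 865 in controls and 1220 to 1636 in deficient lungs, the rise was 0.62 without deficient replicate 3 (adjusted p = 0.00436), and the call was lost without any 1 control or without deficient replicate 1. Kdr, Flt4 and Calcrl are endothelial genes, but not every receptor gene of the list rose in the Rptor line. The 5 that did not pass there were Flt1 (0.11), Vegfb (0.19), Ramp1 (-0.015), Ramp2 (-0.014) and Ramp3 (-0.63). Of the 10 endothelial markers 8 rose in Rptor-deficient lungs and none passed by limma in the Tfam line (3 at an unadjusted p below 0.05) or the Cox10 line (0), and their part in these results was not tested.

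**Figure D4:**
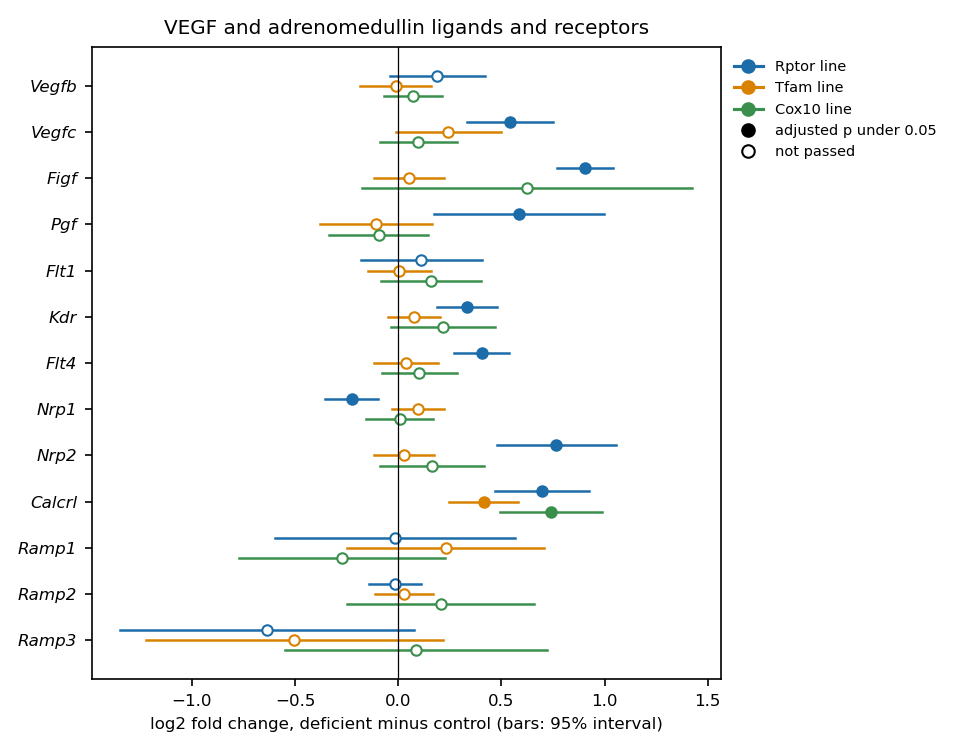
Log2 fold change (deficient minus control, 3 against 3 samples) of 13 ligands and receptors of the VEGF and adrenomedullin pathways in each line, with unadjusted 95% intervals as bars and filled points for an adjusted p below 0.05. Calcrl is filled in all 3 lines, and the other filled points belong to the Rptor line.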

How the data were processed

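RNA was extracted from whole lungs of 14.5 dpc embryos and sequenced; the submitters' processing notes name Trim Galore, HISAT2, featureCounts, DESeq2 and the build mm10, with no versions. The authors deposited a table per line with a normalised signal per gene and sample (a read count over a size factor); 100% of values were whole multiples of 1 step per sample (tolerance 0.1 steps), so reads were recovered. Deposited fold changes and p-values were not used, and 4 rows with repeated symbols were left out. Values were fitted as log2(value + 1), which understates changes of low genes, in limma 3.58.1 (R 4.3.3; eBayes with trend) within each line, Benjamini-Hochberg adjusted over all genes tested and called below 0.05; all tests were two-sided. Differences between lines came from a model of 18 samples. edgeR 4.0.16 and DESeq2 1.42.0 on recovered reads, other filters, pseudocounts, scalings, a replicate block and leaving out each sample were alternatives. The fits were tested on simulated data with the same relative spread for every gene and no library that stood apart, unlike these data. In the simulated Rptor line limma found 99% of log2 changes of 1 and 62% of those of 0.5.

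The 10 genes and all lists were chosen with earlier results of these data known. Beyond the 10, the 4 genes with the largest log2 fold change past the threshold over the 4 pathway lists of a line were named, with the gene nearest in pattern to each called gene; others were named after their values were seen, and 1 gene of a list is not reported here. The labels do not say whether replicates are separate embryos, so p-values measure the spread between samples. Same-numbered Rptor samples deviated together (correlations of deviations 0.22, 0.33 and 0.26), so these numbers were taken as paired; those of the other lines did not all do so. Gene positions are from GENCODE M21. Replicate libraries had correlations of 0.981 to 0.995, and chi-square values per gene of 3.95 to 30.1, so that no 2 replicates of a group agreed within sampling noise. Of marker lists not described with the results, 3 of 5 mesothelial genes rose in the Rptor line, where 1 of 6 smooth muscle genes rose and 4 fell (16.6% of all genes rose and 18.2% fell), 4 smooth muscle genes fell in the Tfam line (2.63%), and no erythroid or neural gene passed.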

Additional observations from a re-analysis of the deposited data

Results flagged for a closer look

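The effect of the deletion on Ndrg1 differed between lines. Its log2 fold change was 1.22 in Rptor-deficient and 0.12 in Tfam-deficient lungs, a difference of 1.10 (SE 0.32, adjusted p = 0.0351 by limma in the model of 18 samples), with all 3 Rptor-deficient lungs above their controls and Tfam groups that overlapped. The difference was 0.82 without Rptor-deficient replicate 1 (adjusted p = 0.0778), and over 18 fits that each left out a sample it ran from 0.82 to 1.26, with adjusted p-values from 0.00686 to 0.0898, 8 of which missed the threshold. Mesenchymal and macrophage markers were higher and epithelial markers lower in the Rptor-deficient lungs, and their part in the difference was not tested.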

How the results depend on the processing

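Calls among the 10 genes were few, so that 1 gene moved a count. In the Rptor line 2 genes passed, 4 with the replicate block (Vegfa and Egln3 added) and 5 with all 18 samples in one fit (Vegfa, Egln3 and Adm added). In the Tfam line 1 passed, 2 with scaling to library totals or with the block (Epas1 added, adjusted p = 0.0455 and 0.0317), 3 by DESeq2 (Epas1 and Vegfa added) and 0 in the fit of all 18 samples, where Slc2a1 kept its log2 fold change of 0.36 with an adjusted p of 0.595. Of the other pathway genes, 6 passed in the Tfam line apart from Adm2, from whose test nothing is drawn, and 2 in the fit of all 18 samples, while 4 to 9 passed with each sample left out, a range that counts Adm2; in the Cox10 line 1 passed, 0 with the block, 3 by DESeq2 and 0 to 1 with a sample left out. Between the Rptor and Tfam lines 1 gene differed, 0 to 1 with a sample left out; between the Rptor and Cox10 lines 0 differed, 0 to 2 with a sample left out. Without both libraries that stood apart, a setting chosen after seeing the data, 2 and 2 differed. edgeR gave 2, 1 and 0 calls in the 3 lines. The log2 fold change of Adm in the Tfam line was -0.00055 with a pseudocount of 0.1, and with a sample left out it ran from -0.22 to 0.22. The ranges with a sample left out that crossed 0 were -0.19 to 0.69 for Slc2a1, -0.14 to 0.26 for Pdk1, -0.16 to 0.98 for Ankrd37 and -0.25 to 0.78 for Bnip3 in the Rptor line, -0.043 to 0.12 for Egln3 and -0.053 to 0.11 for Bnip3 in the Tfam line, and -0.18 to 0.45 for Ankrd37 in the Cox10 line. The causes were not tested. The replicate numbers of the Tfam line (correlations of deviations -0.31, -0.21 and 0.15) and the Cox10 line (0.45, 0.20 and 0.049) did not all deviate together, and the block changed no other call among the named genes than those above and that of Calcrl in the Cox10 line (adjusted p = 0.0569). Adm, with the fewest reads of the 10, had a 95% interval of -0.53 to 0.53 in the Tfam line.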
